A study of Mus musculus with 5 samples.

Results

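The aminoacyl-tRNA synthetases described here are 36 genes, chosen by symbol from the gene family with earlier results of these data known. They are 20 genes for enzymes of the cytosol and 16 nuclear genes, with symbols ending in 2, for enzymes of mitochondria. All 36 were among the 23337 genes listed in the 5 count tables, all 36 had the required minimum of 10 counts summed over the 5 libraries, as did 12783 genes in all, and all 36 passed the filter on low counts, as did 11299 genes in all. The cells were OT-I CD8+ T cells, which carry a transgenic T cell receptor against an ovalbumin peptide, of the strain C57BL/6J CD45.1 OT-I, re-isolated from B16-OVA tumors, a mouse melanoma line that expresses ovalbumin. In both groups, T cells from donors aged 6 to 12 weeks were activated with anti-CD3 plus anti-CD28, cultured with IL-2 at 10 U/ml and transferred into tumor-bearing mice. The Control IgG group (3 libraries) received an anti-KLH rat IgG2b and the anti-PD-L1 group (2 libraries) received a blocking antibody against PD-L1, through which tumor and other cells engage the inhibitory receptor PD-1. Each antibody was injected on days 3 and 6 of the transfer, in doses of 200 µg a mouse. Tumors were taken on day 8 or when they measured 1.2 cm, tumors of several mice of a group were pooled, and RNA came from 5000 to 30000 cells sorted as live CD8+CD45.1+. A library is therefore a pool, and the p-values below measure the spread between pools and their amplification, not between single mice. The question the 2 groups address is how the transcripts of tumor-infiltrating CD8+ T cells differ when PD-L1 is blocked.

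An aminoacyl-tRNA synthetase joins an amino acid to its tRNA, the step that sets the reading of the genetic code, and it does so with ATP. The cytosolic enzymes serve the bulk of protein synthesis, and the mitochondrial enzymes are imported to serve the small set of proteins encoded by mitochondrial DNA. The enzymes fall into class I and class II by the fold of their catalytic domain, and a subset of the cytosolic ones is held with scaffold proteins in the multi-synthetase complex. In T cells, activation raises protein synthesis and amino acid uptake, and the transcription factors MYC and ATF4 are known to act on synthetase genes.

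Short promoter sequences are shown for 4 cytosolic members, Gars, Tars, Farsb and Iars, that held a letter match to 1 of 2 motifs known from such genes, TGATGNAA, the core of the ATF4-type amino acid response element, and CACGTG, the E-box bound by MYC-type factors. The RefSeq promoter table on the GRCm38.p6 build held an entry for 26 of the 36 members, 12 cytosolic and 14 mitochondrial, and the 250 bases before each start were read on both strands. The 2 motifs do not overlap in any window printed. Each line is a 30-base window, 5′ to 3′ on the gene's strand, with the motif in capitals.
Gars, chr6:55037960-55037989, plus strand, motif 30 bases before the start: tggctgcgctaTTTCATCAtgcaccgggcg
Tars, chr15:11399655-11399684, minus strand, motif 15 bases before the start: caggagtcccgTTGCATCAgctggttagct
Farsb, chr1:78488919-78488948, minus strand, motif 39 bases before the start: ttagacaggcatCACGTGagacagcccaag
Iars, chr13:49682049-49682078, plus strand, motif 69 bases before the start: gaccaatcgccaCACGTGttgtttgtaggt
Counting members whose windows are not shown, TGATGNAA was found in 3 of 12 cytosolic members (25.0%), in 0 of 14 mitochondrial members and in 3.91% of all 27025 genes of the table. CACGTG was likewise found in 3 of 12 cytosolic members, in 0 of 14 mitochondrial members and in 6.86% of all genes. Aars, whose windows are not shown, held a match to each motif and is in both counts. Of the 250 bases read for Aars, 202 lay in annotated exons. All the motif matches are matches of letters, and they say nothing of what binds there.

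The 5 libraries held 9985943 to 12830485 counts on genes. Genes with a count numbered 11696 in Control IgG 1 and 11977 in anti-PD-L1 1, against 13564 to 13801 in the other 3 libraries, and a like gap was present after thinning to equal totals (11607 and 11914 against 13416 to 13673). Values below are CPM, counts scaled to a common library size with TMM factors, unless another scale is named. On this TMM scale 3 counts were worth 0.224 to 0.280 CPM. The cell label was checked by marker genes, summed as CPM of library totals: the 7 T cell markers came to 8125 to 9594 CPM, the highest sum of any marker list in every library. The 7 melanoma markers came to 4.03, 299.9 and 95.1 CPM in the controls and to 40.1 and 103 CPM after anti-PD-L1, with none of the 7 at 0 in all libraries. The 8 macrophage and monocyte markers came to 70.4 to 163 CPM, and the sums of the B cell, natural killer, CD4 T cell, dendritic cell, neutrophil, fibroblast and endothelial lists each stayed at or below 73.1 CPM. Klra8, Col3a1, Dcn, Cdh5 and Kdr were at 0 in all 5 libraries.

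Transcripts of most synthetases were lower after anti-PD-L1 than with control IgG, by amounts that no single gene's test could separate from the spread between pools. The edgeR log2 fold change was below 0 for 31 of 36 members, 18 of 20 cytosolic and 13 of 16 mitochondrial, against 51.9% of all tested genes. Its median was -0.25 over the cytosolic members, with a range of -0.58 to 0.05, and -0.38 over the mitochondrial members, with a range of -1.33 to 0.62. The mitochondrial median was -0.17 without Control IgG 1 and -0.20 without anti-PD-L1 1. Over all tested genes the median was -0.02. These genes were measured in the same 5 libraries and are not independent of each other, so the counts of direction carry no test.

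No member passed an adjusted p of 0.05 in edgeR's quasi-likelihood test with Benjamini-Hochberg adjustment, in either direction. The background was the same: 0% of the 11299 tested genes were called higher and 0% lower, and the smallest adjusted p was 0.9999. DESeq2 and limma-voom also called 0 members. At an unadjusted p under 0.05 there were 2 members, Yars and Pars2, both lower, where 0.947% of all tested genes were lower and 1.19% higher at that level. In edgeR, Yars was not under that level with RLE factors, without the low-count filter or without any single control library. Pars2 was not under it without Control IgG 2, without Control IgG 3 or with a replicate block. With DESeq2, limma-voom and edgeR with upper-quartile factors, both genes stayed under it. Over all genes the biological coefficient of variation was 41.1% and the standard errors of the log2 fold changes had a median of 0.38. For the members that median was 0.28 (cytosolic) and 0.36 (mitochondrial). In bulk samples such as these, fewer cells of a type and less RNA per cell cannot be told apart.

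In 11 of 36 members, 6 cytosolic and 5 mitochondrial, both anti-PD-L1 libraries lay below all 3 controls, a share of 30.6%. Among all tested genes that share was 9.58%. They were Cars, Eprs, Farsa, Rars, Tars and Yars in the cytosolic set and Pars2, Rars2, Sars2, Tars2 and Yars2 in the mitochondrial set. In 1 member, Ears2, both lay above all controls (2.78% of members, where 7.74% of all tested genes did so).

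**Figure D1:**
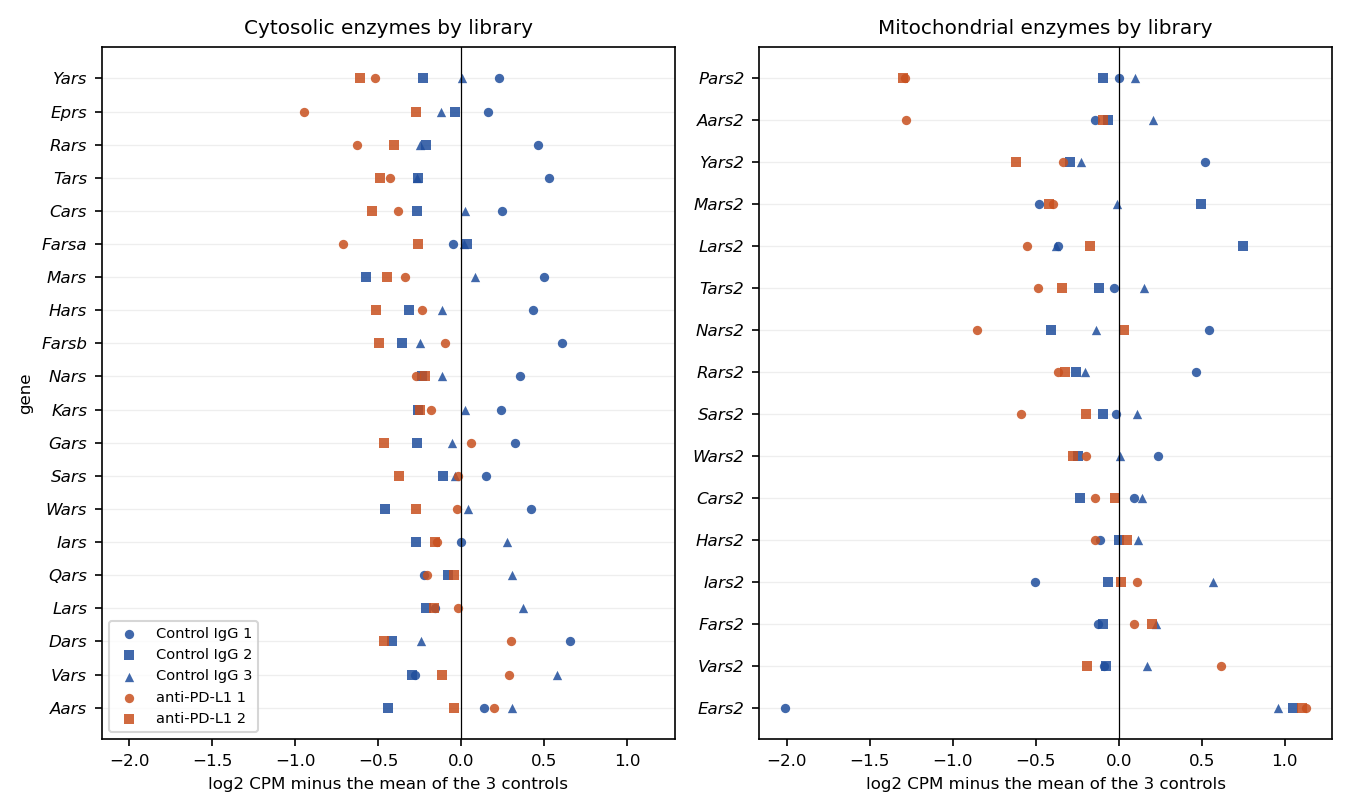
For each of the 20 cytosolic (left) and 16 mitochondrial (right) genes, each point is one library's log2 CPM minus the mean of the 3 Control IgG libraries; blue points are controls and orange points are anti-PD-L1, with the marker shape giving the replicate. Orange points lie left of every blue point for 11 genes and right of every blue point for Ears2 alone, and Control IgG 1 is the rightmost blue point for many cytosolic genes.

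The median over each set was also taken library by library, as the median log2 deviation from the mean of the controls. For the cytosolic members it was 0.24, -0.26 and 0.01 in the controls and -0.20 and -0.32 after anti-PD-L1. The groups overlapped: anti-PD-L1 1 lay inside the control range, whose ends were Control IgG 1 at the top and Control IgG 2 at the bottom. For the mitochondrial members it was -0.06, -0.10 and 0.11 in the controls and -0.35 and -0.18 after anti-PD-L1, and here both anti-PD-L1 libraries lay below every control. The same held for several of the related gene lists given further below. The control medians had an SD of 0.25 for the cytosolic and 0.11 for the mitochondrial set. Over all tested genes the medians of the 5 libraries lay between -0.04 and 0.04.

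The overlap of the summed levels depended on the scaling. On the TMM scale the 20 cytosolic members together took 4647, 3235 and 3911 CPM in the controls and 3420.0 and 3068 CPM after anti-PD-L1, and anti-PD-L1 1 lay inside the control range. The 16 mitochondrial members together took 518, 505 and 545 CPM in the controls and 417 and 449.9 CPM after anti-PD-L1, both below every control, as in the medians. As CPM of the plain library total, a scale compared after the data had been seen, the cytosolic sums were 4192, 3467 and 4140 CPM in the controls and 3185 and 3208 CPM after anti-PD-L1, both below every control. On that scale the mitochondrial sums were 467, 541 and 577 CPM in the controls and 389 and 470.4 CPM after anti-PD-L1, where the second anti-PD-L1 library lay just above the lowest control. The ratio of the cytosolic to the mitochondrial sum was 8.98, 6.41 and 7.18 in the controls and 8.19 and 6.82 after anti-PD-L1, so the ratio did not separate the groups.

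Levels of different genes were compared per kb of transcript, since a longer transcript collects more fragments. In the controls the median of the cytosolic members was 70.6 CPM per kb and that of the mitochondrial members was 9.53 CPM per kb. The cytosolic range ran from 15.6 CPM per kb (Iars, the isoleucine enzyme) to 229 CPM per kb (Kars), and the mitochondrial range from 2.04 (Mars2, the mitochondrial methionine enzyme) to 40.7 (Tars2). The cytosolic median was 7.41 times the mitochondrial one; taken within each library it was 10.8, 6.16 and 7.53 times in the controls and 6.91 and 6.71 times after anti-PD-L1, with both anti-PD-L1 values inside the control range. Divided by coding length instead, a scale added after the data had been seen, the ratio was 5.53. Lengths were those of 1 GENCODE transcript a gene, and some end far beyond the coding part: for Mars2, a gene of 1 exon, it measured 11294 bases.

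**Figure D2:**
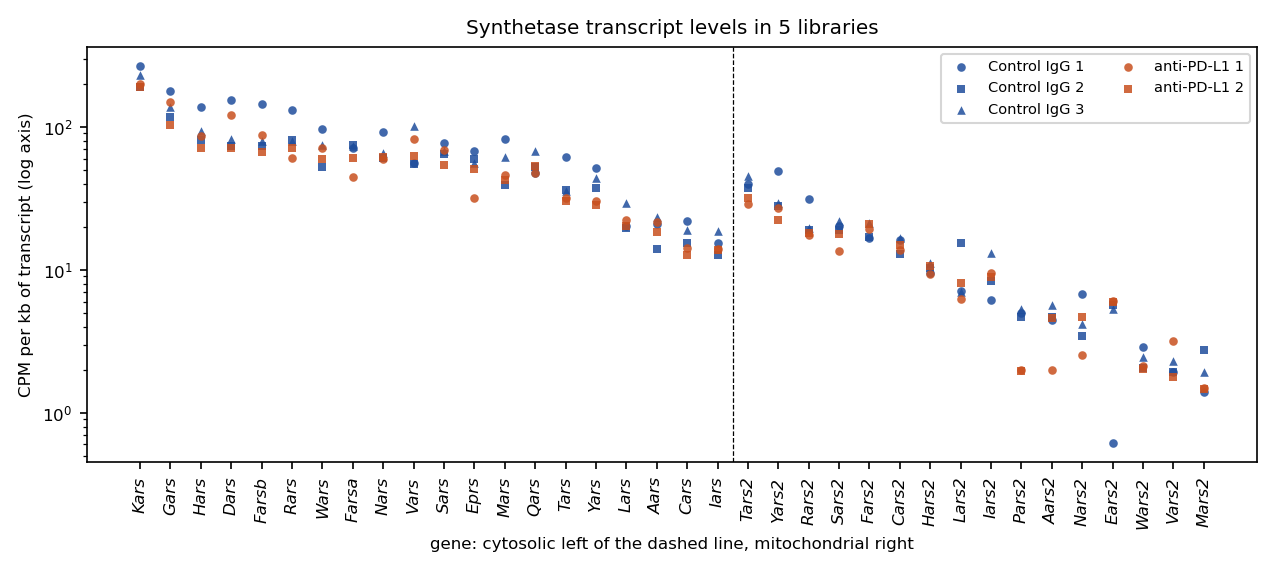
CPM per kb of transcript on a log axis for each member in each of the 5 libraries, cytosolic genes left of the dashed line and mitochondrial genes right of it, each set ordered by its control level. The cytosolic genes run from Kars at 229 CPM per kb down to Iars at 15.6, the mitochondrial genes from Tars2 at 40.7 down to Mars2 at 2.04, and the low point at Ears2 is Control IgG 1.

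Kars and Gars led the order of levels. Each encodes both the cytosolic and the mitochondrial enzyme for its amino acid, lysine or glycine, by alternative transcripts or starts, so a gene count cannot divide them. Kars (chromosome 8, 111993443 to 112011323, minus strand) stood at 229 CPM per kb ± 39.0 (SD, n = 3) in the controls and Gars (chromosome 6, 55038007 to 55079500, plus strand) at 144 ± 30.7. Kars read 537, 380.0 and 461 CPM in the controls and 399.7 and 383 CPM after anti-PD-L1. Gars read 424, 281 and 326 CPM in the controls and 353 and 245 CPM after anti-PD-L1. For both genes the groups overlapped, and the log2 fold changes were -0.23 ± 0.25 (SE) for Kars and -0.20 ± 0.28 for Gars. Hars (104 CPM per kb) and Dars (103) came next, with means closer to each other than the spread of either over the controls.

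Yars, the tyrosine enzyme, had the smallest p of the cytosolic set. It lies on chromosome 4 (129189760 to 129219607, plus strand; all gene positions are GENCODE vM21 on GRCm38). It read 149, 108 and 128 CPM in the controls and 88.7 and 83.0 CPM after anti-PD-L1. Both anti-PD-L1 libraries lay below every control, with means of 128 ± 20.4 (SD, n = 3) and 85.9 ± 4.03 (n = 2). The log2 fold change was -0.58 ± 0.25 (SE), with an unadjusted edgeR p of 0.0476 and an adjusted p of 0.9999.

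Eprs (chromosome 1, 185363044 to 185428360, plus strand) encodes a fused enzyme that charges both the glutamate and the proline tRNAs. It read 334, 292 and 275 CPM in the controls and 155 and 248 CPM after anti-PD-L1. The first anti-PD-L1 library was far below the controls and the second just below them. The log2 fold change was -0.58 ± 0.28 (SE). It was -0.28 without anti-PD-L1 1 and -0.92 without anti-PD-L1 2.

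Rars (chromosome 11, 35808381 to 35834506, minus strand), which charges arginine, read 275, 172 and 168 CPM in the controls and 129 and 150.4 CPM after anti-PD-L1. Tars (chromosome 15, 11382301 to 11399665, minus strand), which charges threonine and holds a TGATGNAA match, read 248, 144 and 143 CPM in the controls and 128 and 122 CPM after anti-PD-L1. In both, the groups did not overlap and Control IgG 1 stood well above the other 2 controls. The log2 fold changes were -0.55 ± 0.30 (SE) for Rars and -0.51 ± 0.31 for Tars, and without Control IgG 1 they were -0.28 and -0.20.

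Farsa (chromosome 8, 84856989 to 84869257, plus strand), the catalytic subunit of the phenylalanine enzyme, was the steadiest member over the controls, at 129, 137 and 135 CPM, a coefficient of variation of 3.02%. After anti-PD-L1 it read 81.7 and 111 CPM, both below every control, with a log2 fold change of -0.47 ± 0.25 (SE), and -0.27 without anti-PD-L1 1. Its partner subunit Farsb, added here after its values were seen, read 294, 150.3 and 162 CPM in the controls and 179 and 136 CPM after anti-PD-L1. The Farsb groups overlapped, with a log2 fold change of -0.36 ± 0.34. Cars (chromosome 7, 143557230 to 143600090, minus strand), the cysteine enzyme, read 70.9, 49.8 and 60.9 CPM in the controls and 46.0 and 41.1 CPM after anti-PD-L1. Both of its anti-PD-L1 values lay below every control, and its log2 fold change was -0.47 ± 0.27.

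The other cytosolic members overlapped between groups. Those for aspartate (Dars), histidine (Hars), isoleucine (Iars), leucine (Lars), methionine (Mars), asparagine (Nars), glutamine (Qars), serine (Sars) and tryptophan (Wars) had log2 fold changes of -0.46 (Mars) to -0.11 (Dars). Aars, the alanine enzyme, and Vars, the valine enzyme, were the 2 cytosolic members above 0, at 0.05 ± 0.28 and 0.04 ± 0.33 (SE). Vars, also chosen after its values were seen, read 231, 229 and 419.8 CPM in the controls and 343 and 259 CPM after anti-PD-L1, with Control IgG 3 above all others. Over the 3 controls the coefficient of variation had a median of 23.2% in the cytosolic set, from 3.02% for Farsa to 42.7% for Dars, and a median of 15.3% in the mitochondrial set.

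**Figure D3:**
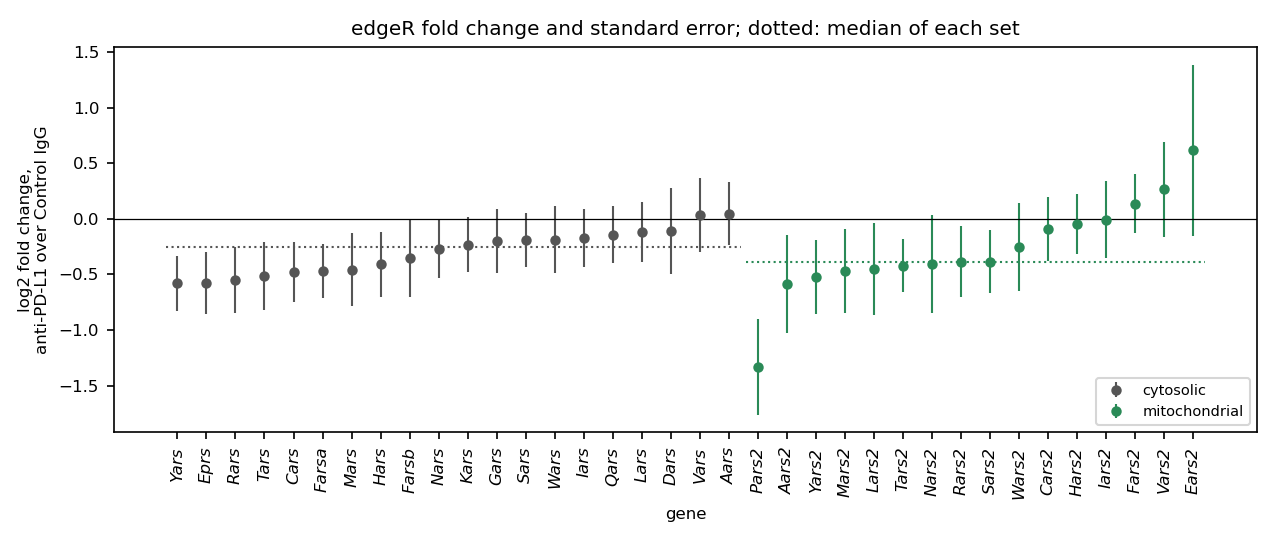
edgeR log2 fold change of anti-PD-L1 (n = 2 libraries) over Control IgG (n = 3) for each of the 36 genes, with bars of 1 standard error, ordered within the cytosolic and the mitochondrial set; dotted lines mark the set medians of -0.25 and -0.38. The values lie below 0 for 31 genes, Pars2 lies lowest at -1.33 and Ears2 highest at 0.62 with the widest bar.

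Among the mitochondrial members, Pars2 differed most. Pars2 (chromosome 4, 106651069 to 106655282, plus strand, 2 exons) encodes the mitochondrial proline enzyme. It had 122, 109 and 152 counts in the controls and 47 and 58 counts after anti-PD-L1. Scaled, this was 10.9, 10.2 and 11.7 CPM against 4.36 and 4.32 CPM, so that the 3 controls lay close together, the 2 anti-PD-L1 libraries lay close together, and the groups were far apart. The means were 10.9 ± 0.736 (SD, n = 3) and 4.34 ± 0.0247 (n = 2). With 2 libraries of 47 and 58 counts, the latter SD does not show how widely such pools vary. The log2 fold change was -1.33 ± 0.43 (SE), with an unadjusted edgeR p of 0.0148 and an adjusted p of 0.9999. The next lowest log2 fold change of a member was that of Aars2, -0.58.

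Tars2 and Yars2 were the most abundant mitochondrial members, at 40.7 ± 4.01 and 35.4 ± 11.9 CPM per kb (SD, n = 3) in the controls. Tars2 (chromosome 3, 95739976 to 95760206, minus strand), for threonine, read 95.2, 89.4 and 108 CPM in the controls and 69.3 and 76.6 CPM after anti-PD-L1. Yars2 (chromosome 16, 16302965 to 16309640, plus strand), for tyrosine, read 77.4, 44.0 and 46.0 CPM in the controls and 42.7 and 35.1 CPM after anti-PD-L1. The groups did not overlap in either gene, but for Yars2 the first anti-PD-L1 library lay close under 2 of the controls. The log2 fold changes were -0.42 ± 0.24 (SE) for Tars2 and -0.52 ± 0.33 for Yars2, the latter -0.21 without Control IgG 1.

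Sars2 (chromosome 7, 28741992 to 28753871, plus strand), for serine, read 37.6, 35.6 and 41.0 CPM in the controls and 25.2 and 33.1 CPM after anti-PD-L1, below every control, and its log2 fold change was -0.38 ± 0.28 (SE), or -0.20 without anti-PD-L1 1. Rars2, for arginine, singled out after its values were seen, read 58.3, 35.3 and 36.6 CPM in the controls and 32.7 and 33.7 CPM after anti-PD-L1, likewise below every control and with Control IgG 1 highest; its log2 fold change was -0.39 ± 0.32, or -0.11 without that library. Aars2 (chromosome 17, 45506841 to 45520843, plus strand), for alanine, read 14.9, 15.8 and 19.0 CPM in the controls and 6.68 and 15.4 CPM after anti-PD-L1. Its difference, a log2 fold change of -0.58 ± 0.44, lay in anti-PD-L1 1 alone, and the other anti-PD-L1 library was inside the control range.

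Mars2 (chromosome 1, 55237177 to 55248470, plus strand), for methionine, read 15.8, 31.2 and 21.9 CPM in the controls and 16.8 and 16.5 CPM after anti-PD-L1, and its log2 fold change was -0.47 ± 0.38 (SE). Lars2, the leucine enzyme, singled out here after its values were seen, read 27.6, 60.1 and 27.4 CPM in the controls and 24.3 and 31.7 CPM after anti-PD-L1. For both genes the groups overlapped and Control IgG 2 was the highest library. Without Control IgG 2 the log2 fold change of Mars2 was -0.18 and that of Lars2 was 0.027. That library also had the highest sum of the melanoma markers, 299.9 CPM, and the part of this in the 2 genes' values was not tested.

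Ears2 (chromosome 7, 122037213 to 122067263, minus strand), the mitochondrial glutamate enzyme, was the member with the largest spread, also singled out after its values were seen. It had 14, 125 and 143 counts in the controls and 133 and 163 counts after anti-PD-L1, or 1.25, 11.7 and 11.0 CPM against 12.3 and 12.2 CPM. Control IgG 1 stood alone at the bottom and the other 4 libraries lay close together. The log2 fold change was 0.62 ± 0.77 (SE), and without Control IgG 1 it was 0.11. Control IgG 1 was also the library with the fewest genes detected, 11696, and the part of this in the Ears2 value was not tested.

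The other mitochondrial members above 0 were Fars2, for phenylalanine (0.14 ± 0.27, SE), and Vars2, for valine (0.27 ± 0.43). Nars2 (asparagine), Wars2 (tryptophan), Cars2 (cysteine), Hars2 (histidine) and Iars2 (isoleucine) had log2 fold changes of -0.40, -0.25, -0.09, -0.05 and -0.01. In all 7 the groups overlapped.

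Each amino acid with both a cytosolic and a mitochondrial gene gives a ratio that is free of the scaling of the library. There were 16 such pairs, with Eprs in 2 of them. Per kb, the cytosolic transcript exceeded the mitochondrial one in the control means of all 16 pairs. The excess was least for threonine (1.09 times), cysteine (1.23), tyrosine (1.24) and isoleucine (1.70), and greatest for valine (34.5), tryptophan (30.4) and methionine (29.9). Within libraries threonine did not keep this direction: its ratio was 1.56, 0.964 and 0.791 in the controls and 1.10 and 0.956 after anti-PD-L1, above 1 in Control IgG 1 and anti-PD-L1 1 alone. The cysteine ratio was 0.853 in anti-PD-L1 2. The ranks depended on the transcript lengths. Per coding kb, compared after the data had been seen, valine stayed first at 27.1, tryptophan stood at 9.40 and methionine at 5.06. On that scale glutamate (13.0) and asparagine (9.44) came next after valine, and isoleucine was lowest at 1.10. The Mars2 and Wars2 transcripts measured 11294 and 4410 bases, of which 1758 and 1080 were coding.

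The log2 ratio within a library lay below all controls after anti-PD-L1 in 4 pairs and above all controls in 1, and overlapped in 11. Eprs is in 2 of these 5 pairs, no share over other pairs of genes was computed, and single tested genes lay below all controls in 9.58% and above in 7.74% of cases. Farsa over Fars2 was 1.86, 1.92 and 1.58 in the controls and 0.99 and 1.32 after anti-PD-L1. The gap between these groups was smaller than the range within either. Cars over Cars2 was 1.19, 1.01 and 0.93 in the controls and 0.81 and 0.53 after anti-PD-L1, and Rars over Rars2 was 2.23, 2.28 and 2.19 against 1.97 and 2.15, where the second anti-PD-L1 value lay just under the lowest control. Eprs over Ears2 was 7.88, 4.62 and 4.63 in the controls, spread by the low Ears2 of Control IgG 1, against 3.63 and 4.33 after anti-PD-L1. Eprs over Pars2, the proline pair, went the other way, at 4.92, 4.82 and 4.54 in the controls and 5.10 and 5.79 after anti-PD-L1. Both genes of the proline pair were lower after anti-PD-L1, and Pars2 was lower by more.

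**Figure D4:**
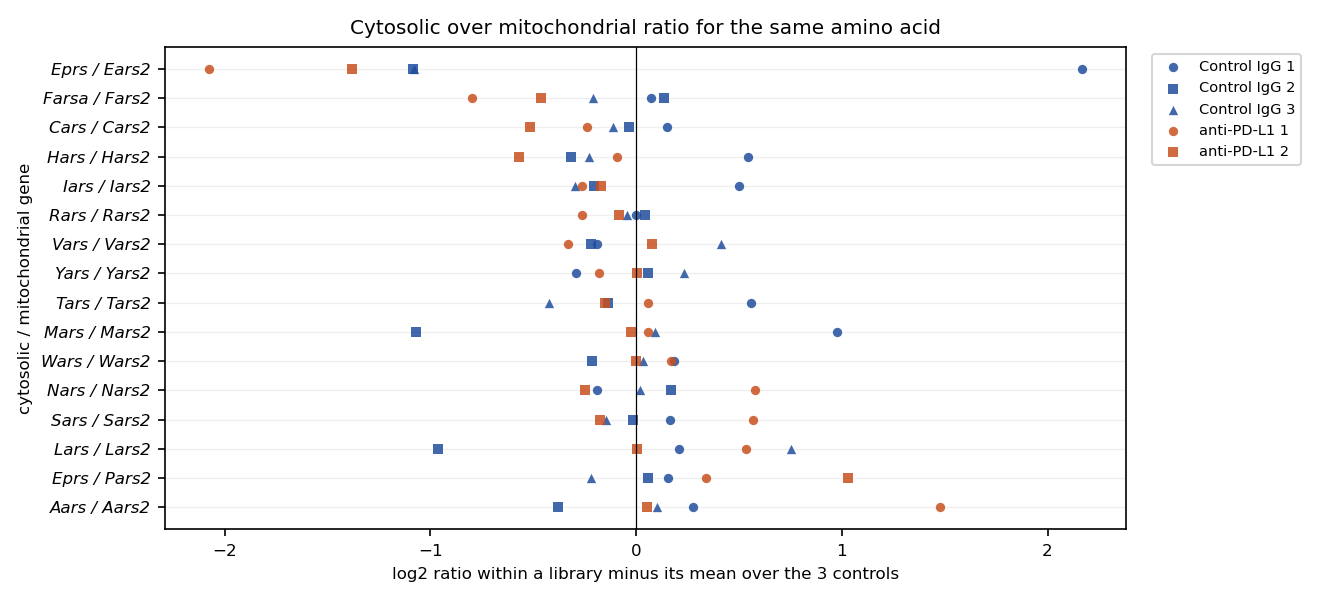
Log2 ratio of the cytosolic to the mitochondrial transcript for the same amino acid in each library, minus its mean over the 3 controls, for the 16 pairs; blue points are Control IgG and orange points anti-PD-L1. Orange points lie left of every blue point for Eprs / Ears2, Farsa / Fars2, Cars / Cars2 and Rars / Rars2, and right of every blue point for Eprs / Pars2.

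The enzymes of the multi-synthetase complex and the free-standing ones were compared within the cytosolic set. All 8 complex enzymes had log2 fold changes below 0, with a median of -0.20, and 10 of the 12 free-standing ones did, with a median of -0.31. By structural class, 16 of 19 class I members were below 0 (median -0.25) and 15 of 17 class II members (median -0.36), with Eprs, whose proline part is class II, counted in class I. None of these subsets held a called gene. The difference between these subsets was not tested.

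The 3 scaffold proteins of the complex were all lower on average after anti-PD-L1, and none was called. Aimp1, which binds the arginine enzyme in the complex, read 91.6, 103 and 90.4 CPM in the controls and 76.3 and 73.9 CPM after anti-PD-L1. Aimp2, the core scaffold, read 151, 131 and 111 CPM in the controls and 109.9 and 87.5 CPM after anti-PD-L1. In both genes the anti-PD-L1 libraries lay below every control, though for Aimp2 only just in the first. Eef1e1, the smallest scaffold and the one tied to the methionine enzyme, read 122, 84.3 and 67.7 CPM in the controls and 66.6 and 70.4 CPM after anti-PD-L1, which overlapped. The log2 fold changes were -0.34 ± 0.23 (SE), -0.41 ± 0.26 and -0.41 ± 0.30.

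Other genes that make or mend charged tRNA are given list by list. Of 6 further genes for mitochondrial charging and an additional threonine enzyme, 4 were below 0 and 2 above, with a median of -0.42. Gatb, a subunit of the amidotransferase that makes mitochondrial glutamine tRNA, read 22.7, 19.6 and 18.0 CPM in the controls and 10.0 and 13.0 CPM after anti-PD-L1, below every control (log2 fold change -0.81 ± 0.34, SE). Gatc, another subunit, read 34.8, 24.2 and 19.2 CPM against 18.5 and 16.0 CPM, also below every control. Mtfmt, which formylates the mitochondrial initiator tRNA and was picked out after its values were seen, read 10.9, 19.6 and 21.7 CPM in the controls and 23.6 and 26.3 CPM after anti-PD-L1, above every control (0.52 ± 0.38). Of 6 proofreading and deacylase genes, 3 were below 0 and 3 above. Among them Dtd1, which removes D-amino acids from tRNA, read 109.6, 65.0 and 57.7 CPM against 35.9 and 52.3 CPM (-0.81 ± 0.36), and Aarsd1, which edits mischarged alanine tRNA, read 89.3, 88.2 and 74.0 CPM against 69.9 and 67.8 CPM. In Dtd1 and Aarsd1 both anti-PD-L1 libraries lay below every control.

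Of 28 genes for tRNA maturation and export, 23 were below 0, with a median of -0.22, and in 10 (35.7%) both anti-PD-L1 libraries lay below every control, where 9.58% of all tested genes did so. Pus7, a pseudouridine synthase, read 75.6, 52.2 and 72.7 CPM in the controls and 34.7 and 47.2 CPM after anti-PD-L1 (log2 fold change -0.71 ± 0.29, SE). Mto1, which modifies mitochondrial tRNAs at the wobble base, read 35.1, 31.9 and 29.7 CPM in the controls and 21.0 and 20.1 CPM after anti-PD-L1 (-0.65 ± 0.29). Both genes were below every control, Mto1 with the wider gap relative to its spread. All 9 elongation factors were below 0, with a median of -0.20. Of these, Eef1g read 2527, 1868 and 1807 CPM against 1179.5 and 1662 CPM, and Eef1d read 556, 435 and 408 CPM against 331 and 389 CPM. Both are subunits of the exchange factor of the elongation factor that carries charged tRNA to the ribosome, and both lay below every control after anti-PD-L1.

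The RNA polymerase III list, the enzyme and factors that transcribe tRNA genes, was divided in direction. Of its 22 genes 12 were above 0 and 10 below, with a median of 0.03. Its 2 genes of smallest p were Gtf3c5, a subunit of the factor that binds tRNA promoters, at 97.6, 57.2 and 78.5 CPM in the controls and 67.7 and 54.8 CPM after anti-PD-L1, and Polr3e, a subunit of the polymerase, at 47.6, 63.1 and 70.7 CPM against 32.6 and 60.3 CPM. Both overlapped between groups.

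Of 26 genes of the ATF4 and amino acid response, 23 could be tested, 18 were below 0 and 5 above, and the median was -0.24. None was called, and 3 had an unadjusted edgeR p under 0.05, all lower, namely Asns, Shmt2 and Cth. Asns, which makes asparagine, read 90.1, 79.1 and 66.4 CPM in the controls and 38.8 and 50.8 CPM after anti-PD-L1 (log2 fold change -0.81 ± 0.27, SE). Shmt2, a mitochondrial enzyme that draws one-carbon units from serine, read 368, 301 and 305 CPM against 167 and 228 CPM (-0.72 ± 0.26). In both genes the groups did not overlap. Cth, of the transsulfuration pathway and named after its values were seen, had 2, 14 and 12 counts in the controls and 0 in both anti-PD-L1 libraries.

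Atf4, the transcription factor of this response, read 134, 253 and 212 CPM in the controls and 95.5 and 197 CPM after anti-PD-L1 (-0.44 ± 0.39, SE). Myc read 746, 469 and 525 CPM against 229 and 535 CPM (-0.60 ± 0.39). Both overlapped, with anti-PD-L1 1 the lowest library of each. Eif2ak4, the kinase GCN2 that senses uncharged tRNA, read 1.97, 11.6 and 10.6 CPM in the controls and 4.91 and 11.4 CPM after anti-PD-L1 (0.02 ± 0.75). Its low values lay in the libraries numbered 1 of both groups, the same 2 that had fewer genes detected, and the part of this in the Eif2ak4 values was not tested.

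**Figure D5:**
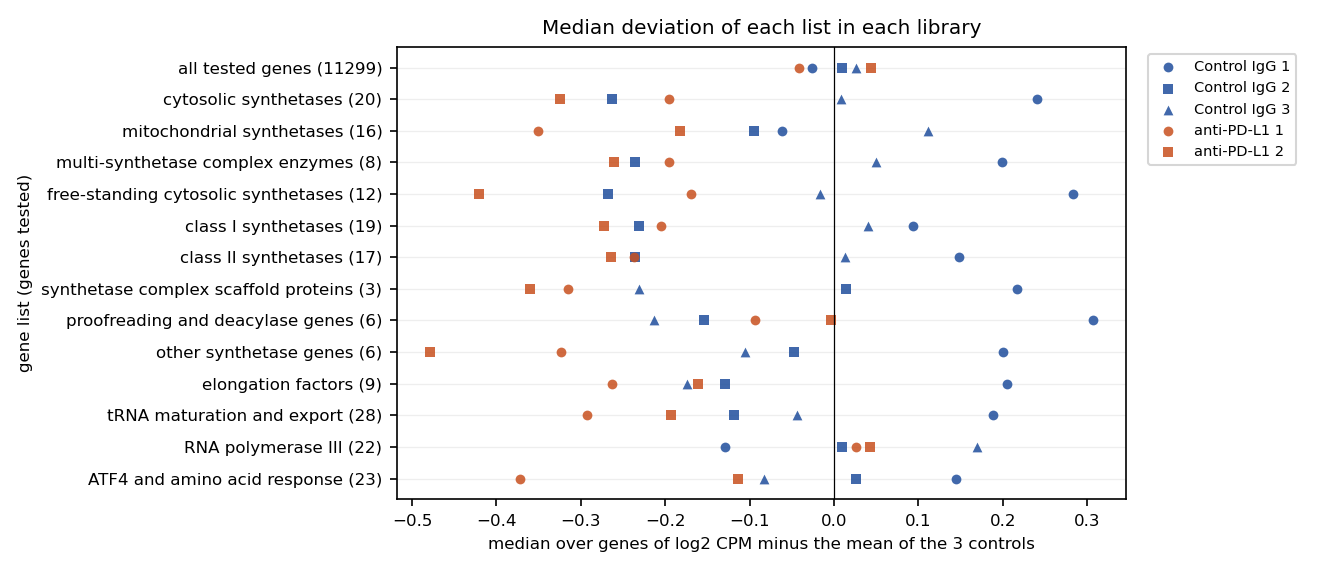
Median over the genes of each list of log2 CPM minus the mean of the 3 controls, with 1 point per library (blue Control IgG, orange anti-PD-L1) and the number of tested genes in brackets. Both anti-PD-L1 points lie left of every control for the mitochondrial synthetases, at -0.35 and -0.18. They do so too for the scaffold protein, other synthetase, tRNA maturation and ATF4 lists, and only just for the class II synthetases. For the cytosolic synthetases anti-PD-L1 1 lies inside the control range, and for RNA polymerase III the groups overlap around 0.

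Some counts could include reads of a neighbour. In the annotation more than 1% of the transcript overlapped exons of another gene for 5 cytosolic and 7 mitochondrial members, most of all Iars2 (37.2%, with Rab3gap2), Aars (23.1%, with Exosc6) and Cars2 (22.2%, with Naxd). Hars and Hars2 lie head to head and overlap by 9.80% of Hars and 5.85% of Hars2. Iars shares 8.61% of its 50-base stretches with Gm4849. Strand use in counting is not given in the sources used here, so the values of these genes are less certain. Of the 11 members below all controls, only Yars (1.03%, with C77080) was among these genes. Ears2, the member above all controls, was among them too (4.35%, with Ubfd1).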

How the data were processed

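Raw counts per gene were deposited by the authors as 1 table per library, 3 Control IgG and 2 anti-PD-L1. Per the submitters' processing notes, TopHat, HTSeq and the mm10 build were used; versions, annotation and strand setting: not given in the sources used here. Per the labels, poly(A) RNA was amplified by Smart-seq2 with 8 PCR cycles and made into libraries with Nextera XT and 12 cycles. Reads carry no molecular identifiers.

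The 5 counter lines (no feature, ambiguous and the like) were left out of totals; of all reads in a table, 7.46% to 15.2% had no feature and 1.38% to 1.51% were ambiguous. Genes were kept by edgeR's filter (minimum count 10, minimum total 15), scaled by TMM and tested with the quasi-likelihood test over all 5 libraries without covariates (edgeR 4.0.16, R 4.3.3), adjusted over all 11299 genes at 0.05. Alternatives used DESeq2 1.42.0, limma 3.58.1, other scalings and filters, a replicate block and left-out libraries. The fit was tested on simulated data. No 2 libraries agreed within sampling noise (chi-square per degree of freedom 19.2 to 92.3). The closest pairs, at 19.2 to 21.7, were among Control IgG 2, Control IgG 3 and anti-PD-L1 2. Pairs with Control IgG 1 or anti-PD-L1 1 stood at 53.2 or more, and the 2 anti-PD-L1 libraries at 82.7, so this measure did not group the libraries by treatment.

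The members and all gene lists were chosen with earlier results of these data known. Of 136 list symbols 4 were matched through RefSeq synonyms; of 49 marker symbols 2 were unmatched. Values were printed for the 6 cytosolic and 6 mitochondrial members of smallest p, the 2 of highest level per kb in each set, Kars, Gars, Eprs beside Pars2, the 2 genes of smallest p of each other list, all scaffolds, Atf4, Myc and Eif2ak4; others are said to have been singled out. Lengths and positions came from GENCODE vM21 (GRCm38) and promoters from RefSeq (GRCm38.p6). Some items are not reported here.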

Additional observations from a re-analysis of the deposited data

How the results depend on the processing

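Over 14 alternatives the number of members called stayed at 0, and the smallest adjusted p of a member was 0.456 (Eprs, without anti-PD-L1 2). Over all genes, DESeq2 called 4 higher, edgeR without a filter called 5 and edgeR without both libraries numbered 1 called 1; 0 were lower in all 14. The cytosolic median ranged from -0.38 (without Control IgG 2) to -0.17 (without Control IgG 1) when 1 library was left out. The mitochondrial median then ranged from -0.36 to -0.17, at -0.17 without Control IgG 1 and -0.20 without anti-PD-L1 1, and was -0.21 without both libraries numbered 1. Members below all controls numbered 11 to 19 with 1 library left out. They numbered 19 without Control IgG 2 (13.7% of all tested genes), 18 without anti-PD-L1 1 (20.9%) and 16 without anti-PD-L1 2 (30.7%). Without both libraries numbered 1 they numbered 20, or 55.6%, against 31.7% of all genes. Members above all controls numbered 1 to 4 with 1 library left out, where 11.4% to 26.3% of all tested genes lay above. Without both libraries numbered 1 these numbered 2, or 5.56%, against 32.1% of all tested genes. The counts with libraries left out were added after seeing the data, and by their definition none can fall below the count with all libraries.

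Of the 36 members, 22 kept their direction in every alternative, among them Yars, Eprs, Pars2 and the other 8 below all controls. The other 14 reversed at least once, and the causes were not tested. For the members below all controls, leaving out libraries could hardly change the direction, since the libraries that remain still lie apart. With a replicate block, Lars was at 0.10, Qars at 0.027, Hars2 at 0.011 and Iars2 at 0.35, the medians were -0.27 (cytosolic) and -0.34 (mitochondrial), and the members under an unadjusted edgeR p of 0.05 were Eprs and Yars. The labels do not tie the numbers, whose deviations correlated at 0.33 and 0.37. Iars2 was at 0.013 with DESeq2, 0.048 with limma-voom, 0.013 with RLE factors and 0.015 with upper-quartile factors; Vars was at -0.022 with library totals only. Without both libraries numbered 1, Aars was at -0.040, Vars at -0.34, Nars2 at 0.28 and Vars2 at -0.27. With 1 library left out, log2 fold changes ranged from -0.14 to 0.21 for Aars, -0.54 to 0.29 for Dars, -0.57 to 0.017 for Farsb, -0.49 to 0.072 for Gars, -0.22 to 0.10 for Lars, -0.25 to 0.027 for Qars, -0.38 to 0.0083 for Sars, -0.18 to 0.39 for Vars, -0.38 to 0.043 for Wars, -0.12 to 0.047 for Hars2, -0.22 to 0.33 for Iars2, -0.65 to 0.027 for Lars2 and -0.21 to 0.65 for Vars2. Leaving out an anti-PD-L1 library leaves 1, assumed to vary like the controls.

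Pars2 rested on 47 to 152 counts a library and Ears2 on 14 to 163. With 2 pools in one group, differences the size of a member's median standard error, 0.28 (cytosolic) or 0.36 (mitochondrial), could not be resolved gene by gene. Larger differences were not called either: Pars2, at -1.33 ± 0.43 (SE), had an adjusted edgeR p of 0.9999.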
